A study of Mus musculus with 4 samples.

Results

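POU domain factors of class IV (Pou4f1, Pou4f2 and Pou4f3) and class III (Pou3f1, Pou3f2, Pou3f3 and Pou3f4) were measured in sorted cells of the dorsal neural tube of mouse embryos. The members were chosen by gene name, as all probe sets whose only gene symbol in the array's annotation is 1 of these 7. This gave 12 probe sets for 6 genes, out of 45101 probe sets on the array. No probe set was matched to Pou4f2, which was not analysed here. Each gene is represented by its brightest probe set, and its other probe sets serve as a check. After a filter on dim probe sets, 5 members were among the 12740 genes tested, and Pou4f3 was not.

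The study compared cells sorted by green fluorescent protein (GFP) from neural tubes dissected between the limb levels at E10.5. Atoh1-GFP cells came from embryos of the Atoh1BAC-GFP line, in which a bacterial artificial chromosome carries GFP into the Atoh1-derived cells that form dorsal interneuron 1 (dI1). dNeurog1-GFP cells came from embryos in which an enhancer of Neurog1 drives GFP in the dorsal cells that form dorsal interneuron 2 (dI2). Both lines were on a mixed B6SJLF1 and ICR background, and each population was measured on 2 arrays described as biological replicates. GFP protein can outlast the activity of the promoter that drives it, so each population can hold progenitors and young neurons together. The labels name the cells as GFP sorted without stating which gate each array holds, and the arrays are read here as the GFP-positive cells. How many embryos each sample came from, and of which sex, is not given.

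POU proteins bind DNA through a bipartite domain, a POU-specific part joined to a POU homeodomain by a flexible linker, and many of them recognise an octamer or related AT-rich sites. Class IV factors, also called Brn3 proteins, are known from neurons that have left the cell cycle, among them sensory neurons and early dorsal interneurons of the spinal cord. Class III factors are known from neural progenitors as well as neurons, where they act beside Sox proteins on shared enhancers.

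The populations are named for basic helix-loop-helix factors, Atoh1 and Neurog1, which bind E-boxes (CANNTG), so the promoters of a class IV and a class III member are shown with the E-boxes in capitals. RefSeq promoter windows were taken by symbol for 5 members. No window was matched to Pou3f1, and Pou4f3 was left out of the motif search. The windows run from 250 bases before the gene start to 50 bases after it, on build GRCm38.p6, and both lie on the minus strand. They are printed 5′ to 3′ along the gene, for chr14:104467950-104468249 (Pou4f1) and chr4:22488317-22488616 (Pou3f2).
Pou4f1: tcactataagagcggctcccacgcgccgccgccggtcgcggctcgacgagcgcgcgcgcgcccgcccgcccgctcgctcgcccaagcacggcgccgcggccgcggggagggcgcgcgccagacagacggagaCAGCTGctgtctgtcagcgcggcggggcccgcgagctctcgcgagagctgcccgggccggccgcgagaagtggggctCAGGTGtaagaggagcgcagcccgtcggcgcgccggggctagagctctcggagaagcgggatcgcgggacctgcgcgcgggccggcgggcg
Pou3f2: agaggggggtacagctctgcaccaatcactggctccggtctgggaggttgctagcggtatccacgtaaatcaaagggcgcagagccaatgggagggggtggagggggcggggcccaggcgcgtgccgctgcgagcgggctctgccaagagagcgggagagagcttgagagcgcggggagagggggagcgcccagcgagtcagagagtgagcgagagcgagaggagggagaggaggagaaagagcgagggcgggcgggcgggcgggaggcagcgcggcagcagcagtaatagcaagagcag
The Pou4f1 window held 2 E-boxes, 1 of them CAGCTG, and was 78.3% G and C. The Pou3f2 window held 0 E-boxes and was 67.7% G and C. The windows of Pou4f2, Pou3f3 and Pou3f4 held 0 as well. Over all 32851 promoter windows of the same length, 72.3% held CANNTG on either strand and 16.3% held CAGCTG, which is a form of CANNTG. The octamer ATGCAAAT, searched on both strands, was in 0 of the 5 windows and in 1.74% of all windows. A match is a description of these letters and was not tested as a binding site.

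The values are MAS5 signals in arbitrary units, and only signals of the same probe set are compared. The replicate 1 arrays had been deposited on a trimmed mean of 250.001 and the replicate 2 arrays on 500.003, so all 4 were first brought to 500. On that common scale the medians of replicates 1 and 2 came to 138 and 76.0 for Atoh1-GFP, and to 115 and 75.4 for dNeurog1-GFP. Dim probe sets thus read higher on the replicate 1 arrays of both populations. Log2 differences were taken as Atoh1-GFP minus dNeurog1-GFP after 32 was added to every signal, which shrinks the fold change of dim probe sets. They are also given within each replicate number. The arrays of a replicate number share a scaling target, which is treated here as a processing batch. The main model was limma without a block (unblocked). A limma model with a block for replicate number (blocked) was its alternative. Both used Benjamini-Hochberg adjustment over all genes tested and a threshold of 0.05. Atoh1 itself had 21412 and 19675 on the Atoh1-GFP arrays, against 1771 and 1861 on the dNeurog1-GFP arrays, and Neurog1 had 172 and 176 on the Atoh1-GFP arrays, against 1388 and 2469 on the dNeurog1-GFP arrays. All 5 dI1 markers were higher and all 5 dI2 markers lower in Atoh1-GFP cells without overlap of the groups, and 5 and 4 of them passed in the blocked model.

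Of the POU factors tested, 0 of 5 passed in the main model, without the block (limma), where 0.22% of all genes passed. In the blocked alternative Pou3f1 was higher in Atoh1-GFP cells, and the brightest probe sets of the other 4 did not pass. At an unadjusted p under 0.05 without the block, 1 of the 5 and 8.59% of all genes passed. With the block 1 of 5 passed, higher in Atoh1-GFP cells, against 6.51% of all genes in either direction and 2.78% higher in Atoh1-GFP cells. The groups did not overlap for 1 of 5 members, Pou3f1, and for 34.7% of all genes. The median log2 difference was 0.22 over the 5 members, which is the value of Pou4f1, and 0.0058 over all genes tested. The members' median was -0.16 within replicate 1 and 0.17 within replicate 2, so its sign turned between the replicate numbers.

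**Figure D1:**
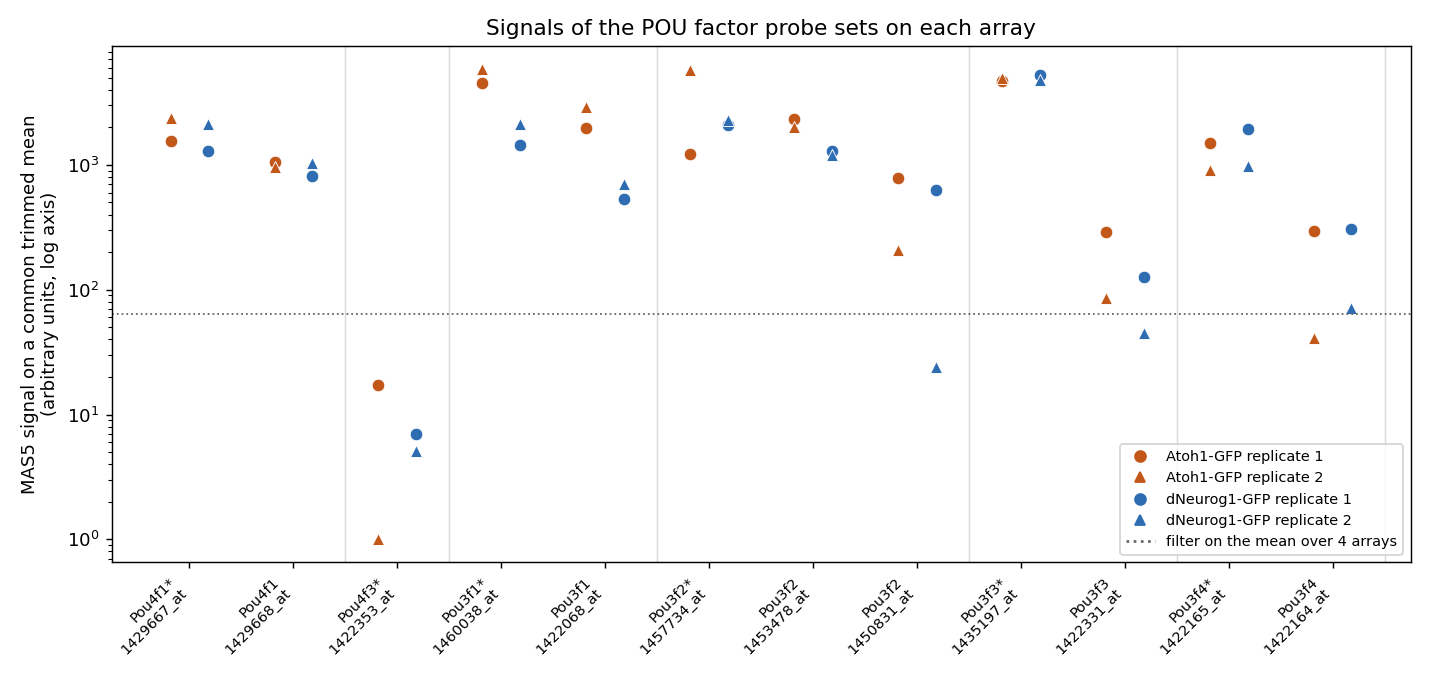
MAS5 signal of each POU factor probe set on each of the 4 arrays, on a common trimmed mean and a log axis. Circles are replicate 1 and triangles replicate 2, Atoh1-GFP stands left of dNeurog1-GFP, a star marks the brightest probe set of a gene, and the dotted line is the filter at 63.5. Both Pou3f1 probe sets lie higher on both Atoh1-GFP arrays, while the Pou4f3 probe set lies under the filter on every array.

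Pou4f1 (Brn3a), the class IV factor of early dorsal interneurons and sensory neurons, gave clear signals in both populations. Its brightest probe set, 1429667_at, read 1557 and 2386 on the Atoh1-GFP arrays of replicates 1 and 2, against 1281 and 2119 on the dNeurog1-GFP arrays in the same order. Here the replicate 2 array was the higher one in each population, and the groups overlapped. The log2 difference was 0.22 (replicate 1, 0.28, and replicate 2, 0.17). The 95% interval of this difference ran from -0.56 to 1.00 without the block and from -0.06 to 0.51 with it (limma adjusted p = 1.00 and 0.33). An increase of more than 1.00 log2 unit in Atoh1-GFP cells thus lies outside both intervals, and a small difference in either direction lies inside them. The second probe set, 1429668_at, read 1047 and 966 on the Atoh1-GFP arrays, against 816 and 1031 on the dNeurog1-GFP arrays. It differed by 0.35 within replicate 1 and by -0.09 within replicate 2. Leaving out the Atoh1-GFP replicate 2 array turned the difference of the brightest probe set to -0.08, and leaving out the dNeurog1-GFP replicate 1 array turned it to -0.13. In sorted pools like these, fewer cells of a type and less RNA per cell cannot be told apart.

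Pou4f3 (Brn3c), the class IV factor known from inner ear hair cells, was under the filter on all arrays. Its single probe set, 1422353_at, read 17.2 and 1.01 on the Atoh1-GFP arrays, against 6.98 and 5.08 on the dNeurog1-GFP arrays. The groups overlapped, the mean lay under the filter of 63.5, and the values carry no order between the populations. When the filter was left off, its log2 difference was 0.08 with a standard error of 0.28 (limma without the block, adjusted p = 1.00 over 18193 genes). Pou4f1 was therefore the only class IV factor with a signal above the filter among those measured.

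Pou3f1 (Oct6 or Scip), a class III factor known for its role in Schwann cells before myelination, had the largest difference of the tested members by the brightest probe set. Probe set 1460038_at read 4526 and 5824 on the Atoh1-GFP arrays, against 1443 and 2122 on the dNeurog1-GFP arrays. Both Atoh1-GFP arrays lay above both dNeurog1-GFP arrays, at means of 5175 ± 917 and 1782 ± 480 (SD, n = 2 each). The signal was 3.14-fold higher in Atoh1-GFP cells within replicate 1 and 2.74-fold higher within replicate 2.

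The log2 difference of Pou3f1 was 1.54 (replicate 1, 1.63, and replicate 2, 1.44). It missed the threshold without the block (limma adjusted p = 0.10, standard error 0.27) and passed with it (adjusted p = 0.0035, standard error 0.12, 95% interval from 1.25 to 1.82). A log2 difference of at least 1 toward Atoh1-GFP cells within both replicate numbers was found for 1.11% of all genes. The second probe set of the gene, 1422068_at, read 1981 and 2886 on the Atoh1-GFP arrays, against 532 and 705 on the dNeurog1-GFP arrays. Its log2 difference was 1.91 (replicate 1, 1.83, and replicate 2, 1.98), so both probe sets showed the gene higher in Atoh1-GFP cells, in replicate 1 as in replicate 2. Among the 27022 probe sets it too passed only with the block (limma adjusted p = 0.24 without the block, where 0.0037% of probe sets passed, and 4.4e-05 with it, where 7.98% did). Without the dNeurog1-GFP replicate 1 array the difference of the brightest probe set was 1.26, and limma's adjusted p was 0.091. Leaving out any other single array gave limma an adjusted p between 9.0e-05 and 0.0081 without the block, a fit that assumes the lone array of a group to vary like the other group.

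Pou3f2 (Brn2), a class III factor of neural progenitors and young neurons, gave different answers by probe set. The brightest, 1457734_at, read 1226 and 5810 on the Atoh1-GFP arrays, against 2069 and 2307 on the dNeurog1-GFP arrays. The Atoh1-GFP replicate 2 array stood highest and the Atoh1-GFP replicate 1 array lowest, so that the log2 difference was -0.74 within replicate 1 and 1.32 within replicate 2. Opposite directions within the replicate numbers were found for 33% of all genes. The difference over all 4 arrays was 0.29 (limma adjusted p = 1.00 unblocked and 0.74 blocked). It was 1.40 without the Atoh1-GFP replicate 1 array (limma adjusted p = 0.0027) and -0.82 without the Atoh1-GFP replicate 2 array (adjusted p = 0.31), so this probe set gives no direction.

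The second Pou3f2 probe set, 1453478_at, read 2326 and 1997 on the Atoh1-GFP arrays, against 1287 and 1190 on the dNeurog1-GFP arrays. Here the groups did not overlap, and the 2 arrays of each population lay close together. Its log2 difference was 0.78 (replicate 1, 0.84, and replicate 2, 0.73), at limma adjusted p = 0.57 unblocked and 0.0065 blocked. The dimmest, 1450831_at, read 784 and 208 on the Atoh1-GFP arrays, against 632 and 24.0 on the dNeurog1-GFP arrays. Both replicate 1 arrays read above both replicate 2 arrays, and the log2 difference was 0.30 within replicate 1 and 2.10 within replicate 2 (limma adjusted p = 1.00 unblocked and 0.066 blocked). The 3 probe sets thus share no common size of difference, and only the second passed, with the block alone.

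Pou3f3 (Brn1), the close relative of Pou3f2 that is known to overlap with it in the developing cortex, had no difference past the threshold by either probe set. Probe set 1435197_at read 4717 and 4931 on the Atoh1-GFP arrays, against 5272 and 4771 on the dNeurog1-GFP arrays. The groups overlapped, and the log2 difference was -0.06 (replicate 1, -0.16, and replicate 2, 0.05). Its 95% interval ran from -0.51 to 0.40 without the block and from -0.34 to 0.23 with it (limma adjusted p = 1.00 and 0.82). Leaving out the dNeurog1-GFP replicate 1 array turned the sign, to 0.015.

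The dimmer Pou3f3 probe set, 1422331_at, read 289 and 86.0 on the Atoh1-GFP arrays, against 125 and 45.2 on the dNeurog1-GFP arrays. Its log2 difference of 0.82 opposed that of the brighter one, at 1.03 within replicate 1 and 0.61 within replicate 2. The replicate 1 arrays read higher in both populations and the groups overlapped, and the difference did not pass (limma adjusted p = 1.00 unblocked and 0.11 blocked).

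Pou3f4 (Brn4), an X-linked class III factor known for its role in the inner ear, differed between the populations by less than the arrays of a population differed from each other. Probe set 1422165_at read 1509 and 913 on the Atoh1-GFP arrays, against 1927 and 987 on the dNeurog1-GFP arrays. In each population replicate 1 read higher, the groups overlapped, and the log2 difference was -0.23 (replicate 1, -0.35, and replicate 2, -0.11). The 95% interval ran from -1.14 to 0.69 without the block and from -0.55 to 0.09 with it (limma adjusted p = 1.00 and 0.37). The sign turned without the Atoh1-GFP replicate 2 array (0.13) and without the dNeurog1-GFP replicate 1 array (0.24). The dimmer probe set, 1422164_at, read 296 and 41.2 on the Atoh1-GFP arrays, against 307 and 71.6 on the dNeurog1-GFP arrays, a log2 difference of -0.27 that did not pass (limma adjusted p = 1.00 unblocked and 0.63 blocked).

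**Figure D2:**
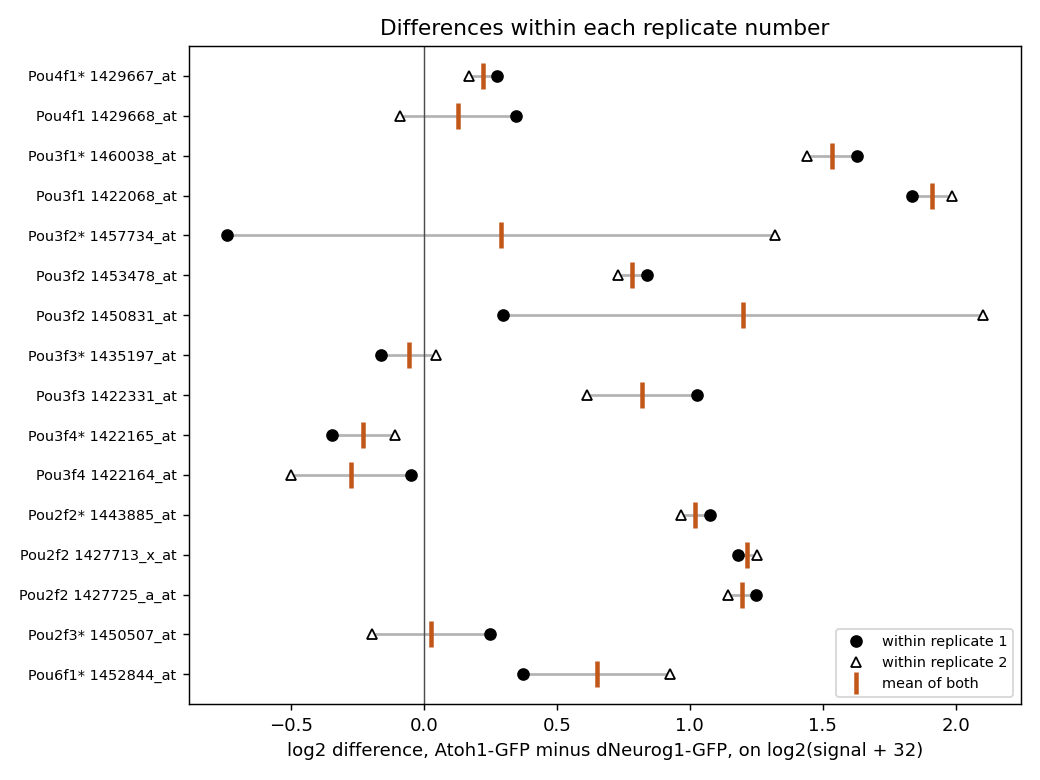
Log2 difference, Atoh1-GFP minus dNeurog1-GFP, of each POU probe set above the filter, within replicate 1 (filled circles), within replicate 2 (open triangles) and as the mean of both (bars). A star marks the brightest probe set of a gene. Both Pou3f1 probe sets, the second of Pou3f2 and all 3 of Pou2f2 lie to the right of 0 with little spread. The brightest Pou3f2 probe set spans from -0.74 to 1.32.

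Across the members, the brightest probe sets of Pou4f1, Pou3f3 and Pou3f4 differed by less than 0.5 log2 units in size within both replicate numbers, as 64.9% of all genes did. Pou3f1 and Pou4f1 were higher in Atoh1-GFP cells within both, Pou3f4 was lower within both, and Pou3f2 and Pou3f3 went opposite ways. Of the 11 member probe sets above the filter, 3 had groups that did not overlap, against 30.7% of all probe sets, a share near that background. The same 3 passed with the block, against 7.98% of all probe sets, both of Pou3f1 and the second of Pou3f2.

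**Figure D3:**
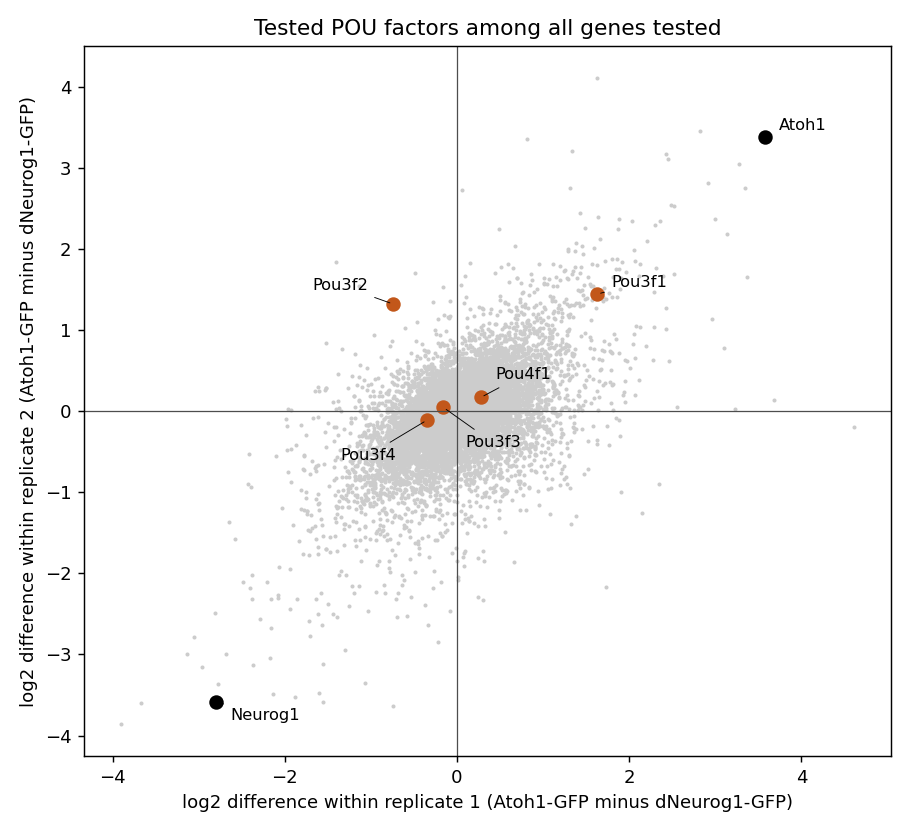
Each point is a gene tested, with its log2 difference (Atoh1-GFP minus dNeurog1-GFP) within replicate 1 on the horizontal and within replicate 2 on the vertical axis. The 5 tested POU factors are in colour and Atoh1 and Neurog1 in black. Pou3f1 lies at 1.63 and 1.44, Pou3f2 lies in the upper left quadrant, and Pou4f1, Pou3f3 and Pou3f4 lie near the origin.

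Of 6 POU genes listed outside classes III and IV, 4 had a probe set and 3 were tested. Pou2f2 (Oct2), known from B lymphocytes and from neurons, read 1306 and 785 on the Atoh1-GFP arrays, against 603 and 386 on the dNeurog1-GFP arrays, without overlap of the groups. Its log2 difference was 1.02 (replicate 1, 1.08, and replicate 2, 0.97), at limma adjusted p = 0.40 unblocked and 0.018 blocked. Its other probe sets, at 1.22 and 1.20, also passed with the block among the probe sets (limma adjusted p = 0.0019 and 0.0038) and not without it (0.34 and 0.38). Pou6f1 differed by 0.65 log2 units (0.37 in replicate 1 and 0.93 in replicate 2), and Pou2f3 by 0.03. Neither passed (limma adjusted p with the block 0.13 and 0.97). Pou5f1 (Oct4), the pluripotency factor, was under the filter, at 8.14 and 7.30 on the Atoh1-GFP arrays, against 23.6 and 20.0 on the dNeurog1-GFP arrays.

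Among genes known beside class IV factors in sensory neurons, 4 of 6 were tested and 1 passed with the block, lower in Atoh1-GFP cells. This was Isl1, the LIM-homeodomain factor that works with Pou4f1 there, at 640 and 566 on the Atoh1-GFP arrays, against 1946 and 5163 on the dNeurog1-GFP arrays. Its log2 difference was -2.34 (limma adjusted p = 0.018 with the block and 0.12 without it). The groups lay apart, and the difference was larger within replicate 2 (-3.12) than within replicate 1 (-1.56). Isl1 is also a motor neuron gene. The dNeurog1-GFP replicate 2 array that read 5163 was also the highest for the motor neuron genes Mnx1 (910, against 164 on the dNeurog1-GFP replicate 1 array) and Lhx3 (939, against 287). Chat, a further gene of motor neurons, was not higher there (142, against 146). The part of motor neurons in the Isl1 difference was not tested. Neurod1 and Neurod4, neurogenic factors that Pou4f1 is known to hold down in mouse sensory ganglia, had differences of -0.65 and -0.59 and did not pass (limma adjusted p with the block 0.052 and 0.087). Runx1 had -0.32 and did not pass. The list's median was -0.62.

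Among genes known beside class III factors, 5 of 6 were tested and 2 passed with the block, in opposite directions. Sox11, a SoxC factor of young neurons, read 17955 and 18151 on the Atoh1-GFP arrays, against 12048 and 11837 on the dNeurog1-GFP arrays, a log2 difference of 0.59 (limma adjusted p = 0.047 with the block and 0.25 without it). Fabp7, the radial glial fatty acid binding protein, read 4411 and 2929 on the Atoh1-GFP arrays, against 13102 and 7773 on the dNeurog1-GFP arrays, a log2 difference of -1.48 (limma adjusted p = 0.0038 with the block and 0.16 without it). For both genes the arrays of the populations did not overlap. Sox2 (-0.11), the Notch ligand Dll1 (0.55) and nestin, Nes (0.40), did not pass in either model, and the list's median was 0.40.

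By pattern over the 4 arrays, the genes nearest to Pou4f1 were Gtf3c6, Cdk5 and Alg2, at Euclidean distances of 0.03 to 0.04 between gene-centred log2 values, and those nearest to Pou3f3 were Mfsd14b, Mapre3 and Caml, at 0.0093 to 0.026. With 4 arrays, nearness among 12740 genes is a description only.

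Markers of other cells also differed between the samples. Of 8 neuron markers 4 passed as higher and 1 as lower in Atoh1-GFP cells when blocked, with a median log2 difference of 0.64, and their summed signal came to 54951 and 58548 on the Atoh1-GFP arrays, against 36705 and 49808 on the dNeurog1-GFP arrays. Of 9 progenitor markers 4 passed in the blocked model, each with lower signals in Atoh1-GFP cells, and with sums of 46336 and 37947 on the Atoh1-GFP arrays, against 66944 and 47404 on the dNeurog1-GFP arrays. Most neuron markers that passed thus moved in the direction of Pou3f1, and their part in its difference was not tested. The largest difference among the neuron markers was that of Tubb3, at 1.01. Nefm, the 1 that passed as lower, differed by -0.78, and Nefl, which did not pass, by -0.71.

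Ventral neural tube markers, of which 11 of 14 were tested, had sums of 1623 and 1001 on the Atoh1-GFP arrays, against 1550 and 3886 on the dNeurog1-GFP arrays, so that the dNeurog1-GFP replicate 2 array stood apart. The median of these markers was 0.01 within replicate 1 and -2.04 within replicate 2. With the block 2 of them passed, both lower in Atoh1-GFP cells, and both were lower within replicate 1 as well. These were Olig2 (-1.56 within replicate 1 and -3.59 within replicate 2) and Lhx4 (-2.13 and -3.48). Of the 9 that did not pass, Foxa2, Shh and Sim1 went the other way, at log2 differences of 0.69, 0.69 and 0.43. The rest of the 9 were lower in Atoh1-GFP cells on average. Olig2 read 3.82 and 7.44 on the Atoh1-GFP arrays, against 73.6 and 443 on the dNeurog1-GFP arrays. Lhx4 read 22.8 and 6.55, against 209 and 399. Both Atoh1-GFP arrays were thus under the filter signal of 63.5 for both genes, where the added 32 largely sets the size of the difference. Pou3f1 differed by 1.63 and 1.44 within the same replicates, and the part of ventral cells in its difference was not tested. Of 9 sensory ganglion and neural crest markers 5 were tested, and 1, the ATP receptor gene P2rx3, passed with the block, higher in Atoh1-GFP cells (1.89, limma adjusted p = 0.0077). The other 4 did not pass, at 0.34 for Sox10, -0.04 for Six4, -0.32 for Runx1 and -0.86 for Isl2, and the list's median was -0.04. The sums of all 5 were 1534 and 1408 on the Atoh1-GFP arrays, against 894 and 1148 on the dNeurog1-GFP arrays. Without P2rx3 they were 917 and 460 on the Atoh1-GFP arrays, against 777 and 871 on the dNeurog1-GFP arrays. The sum without that gene was thus still higher in Atoh1-GFP cells within replicate 1, and lower within replicate 2. The sensory neuron genes Runx3 and Avil lay under the filter on average, Runx3 at 38.1 and 10.9 on the Atoh1-GFP arrays, against 52.4 and 10.1 on the dNeurog1-GFP arrays, and Avil at 20.4 and 56.8, against 44.0 and 24.2. Of the markers of dI3 and dI5, other neurons known to make Pou4f1, 2 of 5 passed with the block, both lower in Atoh1-GFP cells, namely Isl1 and Prrxl1 (-1.38). The sums of all 5 were 1492 and 1115 on the Atoh1-GFP arrays, against 3164 and 5960 on the dNeurog1-GFP arrays. Isl1 alone gave 640 and 566 of these on the Atoh1-GFP arrays, against 1946 and 5163 on the dNeurog1-GFP arrays. For Tlx3 (0.01), Lmx1b (-0.60) and Phox2a (-0.59) the groups overlapped, and none of them passed. The part of dI3 and dI5 neurons in the Pou4f1 signal was not tested.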

How the data were processed

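RNA of GFP-sorted cells was measured on 4 Affymetrix mouse arrays, 2 of Atoh1-GFP and 2 of dNeurog1-GFP cells. The deposited values are linear signal intensities of each array, made with MAS5 per the submitters' processing notes. No version or target is stated there. The trimmed means of the deposited intensities, with 2% left out at each end, were near 250.001 for replicate 1 and 500.003 for replicate 2 in both populations. Each array was therefore multiplied to a trimmed mean of 500, and the replicate number was treated as a processing batch. The labels do not say that equal numbers share a day or litter.

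The 64 control probe sets were left out. Of 45037 others, 34945 carried a single symbol in the array's annotation, 932 carried several and 9160 remain unnamed. Probe sets with a mean at or above the 40th percentile (63.5) were kept, 27022 in all, and the brightest of them with a single symbol stood for its gene. The models of limma 3.58.1 in R 4.3.3 (lmFit, eBayes with an intensity trend) were run on log2(signal + 32), without a block (2 residual degrees of freedom, median prior 4.92) and with a block for replicate number (1 and 5.11). The p-values therefore lean on the spread shared across genes. Intervals cover 95% and are not adjusted. The functions were tested on simulated data. The number of arrays limits the precision, and no depth applies.

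The members, gene lists and tests were chosen with earlier results of these data known. Named are all members with each probe set, the other POU genes, and genes known beside each class. The 3 genes nearest in pattern to the brightest member of each class, Atoh1 and Neurog1 are named too. Marker lists are given with some or all of their genes. Promoter sequences are RefSeq's. The main model was the one without the block. Alternatives were the replicate block, other scalings, pseudocounts, filters, probe sets, no trend, and each array left out.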

Additional observations from a re-analysis of the deposited data

How the results depend on the processing

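Without the block, 28 of all genes passed (16 higher in Atoh1-GFP, 12 in dNeurog1-GFP cells), and 829 passed with it (354 and 475). Signals as deposited gave 13 without the block (1 higher, 12 lower), a common 75th percentile 18 (7 and 11), no filter 14, a filter at the 60th percentile 18, and no intensity trend 0 (limma, with 978 at an unadjusted p under 0.05). Leaving out 1 array gave 153 to 380. Combined with the block, choices added after seeing the data, the deposited signals gave 1169, the 75th percentile 1200 and quantile normalization 1861. The cause was not tested. Of the 5 POU factors 0 passed without the block and 1, Pou3f1, with it, as well as with the block and each of the 3 other scalings. Leaving out 1 array gave 0 to 2. The log2 difference of Pou3f1 kept its sign in all 17 alternatives, from 1.26 to 1.91, and without the block it missed the threshold under every scaling, pseudocount and filter tried and without the trend (limma adjusted p from 0.085 to 1). Single arrays left out gave -0.13 to 0.58 for Pou4f1, -0.82 to 1.40 for Pou3f2, -0.13 to 0.015 for Pou3f3 and -0.70 to 0.24 for Pou3f4. The second Pou3f3 probe set turned its sign, to 0.82. The deviations of same-numbered arrays from their group means correlated across genes at 0.66, with 2 pairs only.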
